A study of Mus musculus with 6 samples.

Results

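Ephrin-B ligands and EphB receptors form a family of contact-dependent signalling proteins, and the expression of its 8 mouse members was compared between the anterior and posterior palate. The members were chosen by gene symbol, as 3 ligands (Efnb1, Efnb2 and Efnb3) and 5 receptors (Ephb1, Ephb2, Ephb3, Ephb4 and Ephb6), out of 56691 gene identifiers in the count files. All 8 members had enough reads to be tested, among 15673 genes tested in all. Bulk RNA-seq had been performed on palatal shelves of C57BL/6J mouse embryos at embryonic day 14.0, with the anterior 1/3 and the posterior 1/3 of the shelves represented by 3 libraries each. No engineered allele and no treatment is named in the labels, and both regions share strain and stage. The study's text calls the bulk samples biologically independent. The labels do not say how many embryos each library held or whether the regions came from the same embryos, so the p-values below measure the spread between these libraries.

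Ephrin-B ligands are membrane-spanning proteins that bind EphB receptor tyrosine kinases on neighbouring cells. Binding sends a forward signal into the receptor-bearing cell and a reverse signal through the ligand's cytoplasmic tail, and the outcome is often repulsion, sorting of cells or the making of a tissue boundary. In mice, loss of Efnb1, and combined loss of Ephb2 and Ephb3, cause cleft palate, and variants of the human counterpart of Efnb1 cause craniofrontonasal syndrome. Efnb2 and Ephb4 are best known as the arterial and venous partners of blood vessel development.

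Efnb2 was higher in the posterior palate by 2.27-fold, and Ephb1 was higher in the anterior palate by 1.77-fold. The Ephb1 call was made in 10 of 17 other fits, and its log2 fold change moved from -0.82 to -0.51 with the library-group term described with the libraries. The other 6 members, Efnb1, Ephb2 and Ephb3 among them, did not pass the test. Efnb1 had the next largest difference, toward the anterior palate, and its call depended on how 2 posterior libraries were treated. The members called were 2 of 8, 1 in each direction, where edgeR's quasi-likelihood test called 7.46% of all genes tested at an adjusted p below 0.05, with 4.87% higher in the posterior and 2.59% higher in the anterior palate. The regions did not overlap for the same 2 members, a share close to the background, since 28.0% of all genes tested did not overlap (14.7% with the posterior libraries above and 13.4% with the anterior libraries above). The study had also picked Efnb2 as a posterior marker from its single-cell data, and counts it among cleft-related genes. It further reported higher posterior Efnb2 by quantitative RT-PCR and mainly posterior expression by in situ hybridization. The bulk libraries served there to check the single-cell markers of the 2 regions.

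The promoters of the 2 members called are printed here, because these are the genes whose RNA levels parted the regions. RefSeq sequences of 300 bases, from 250 bases before to 50 bases after the start of the gene, were held for 7 of the 8 members on GRCm38.p6. Capitals mark the GC box GGGCGG and the CCAAT box CCAAT, on either strand, so that CCAAT on the other strand reads ATTGG. The Efnb2 promoter lies at chr8:8661193-8661492 on the minus strand and the Ephb1 promoter at chr9:102354644-102354943 on the minus strand.
Efnb2: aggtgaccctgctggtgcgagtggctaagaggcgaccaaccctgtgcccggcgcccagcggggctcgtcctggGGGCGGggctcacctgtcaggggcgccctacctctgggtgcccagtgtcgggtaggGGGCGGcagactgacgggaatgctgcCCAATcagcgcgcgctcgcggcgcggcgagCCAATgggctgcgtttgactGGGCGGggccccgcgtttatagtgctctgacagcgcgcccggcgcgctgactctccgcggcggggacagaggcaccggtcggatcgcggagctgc
Ephb1: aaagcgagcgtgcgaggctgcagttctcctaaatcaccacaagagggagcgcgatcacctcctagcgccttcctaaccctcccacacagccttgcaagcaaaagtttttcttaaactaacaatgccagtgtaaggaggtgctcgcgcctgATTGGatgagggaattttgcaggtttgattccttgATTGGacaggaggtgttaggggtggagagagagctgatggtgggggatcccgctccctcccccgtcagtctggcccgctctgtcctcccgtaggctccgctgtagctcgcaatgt

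The promoter of Efnb2 held 3 GC boxes and 2 CCAAT boxes, and that of Ephb1 held 2 CCAAT boxes and no GC box. Of all 32851 RefSeq promoters of this length, 35.7% held a GC box and 37.4% held a CCAAT box. The GC content was 72.3% for Efnb2 and 55.7% for Ephb1, against a median of 52.7% over all promoters. The ratio of observed to expected CpG was 0.904 for Efnb2 and 0.603 for Ephb1, with a median of 0.384. Among the members not called, GC boxes were found at Ephb3 (2), Ephb4 (4) and Ephb6 (5), and a CCAAT box at Efnb1, Ephb2 and Ephb4 (1 each). The letters TAATTA, a core shared by many homeodomain proteins, were in none of the 7 promoters on either strand and in 5.29% of all promoters, which says only that these letters are not in these windows.

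The libraries held between 11378736 and 15172733 reads on genes. The members had from 206 reads (Ephb1) to 4698 reads (Ephb4) in a library, so that counting error alone amounts to 6.97% of the lowest Ephb1 count and 1.76% of the lowest Ephb4 count. Levels are given as CPM, which are read counts on a gene scaled to library size with the TMM factors of edgeR, and a fold change is posterior over anterior unless stated. Posterior replicates 2 and 3 stood apart from the other 4 libraries, with 6.12% and 5.94% of reads mapping to several places against 8.45% to 8.77%, and with 0.973% and 1.14% of counts on mitochondrial transcripts against 2.70% to 2.97%. The labels name no reason, and since both libraries are posterior, the regions can be compared within the other libraries only through posterior replicate 1. A fit with a library-group term, which parts posterior replicates 2 and 3 from the rest, in effect sets posterior replicate 1 against the 3 anterior libraries. The posterior side is then 1 library, which the fit assumes to vary like the others, so its p-values have no posterior replicates behind them. Xist and Y-linked transcripts marked replicate 2 of each region as female and the other 4 libraries as male. As a check of the labels, Shox2 and Msx1 were called higher in the anterior libraries and Meox2 and Tbx22 higher in the posterior libraries.

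**Figure D1:**
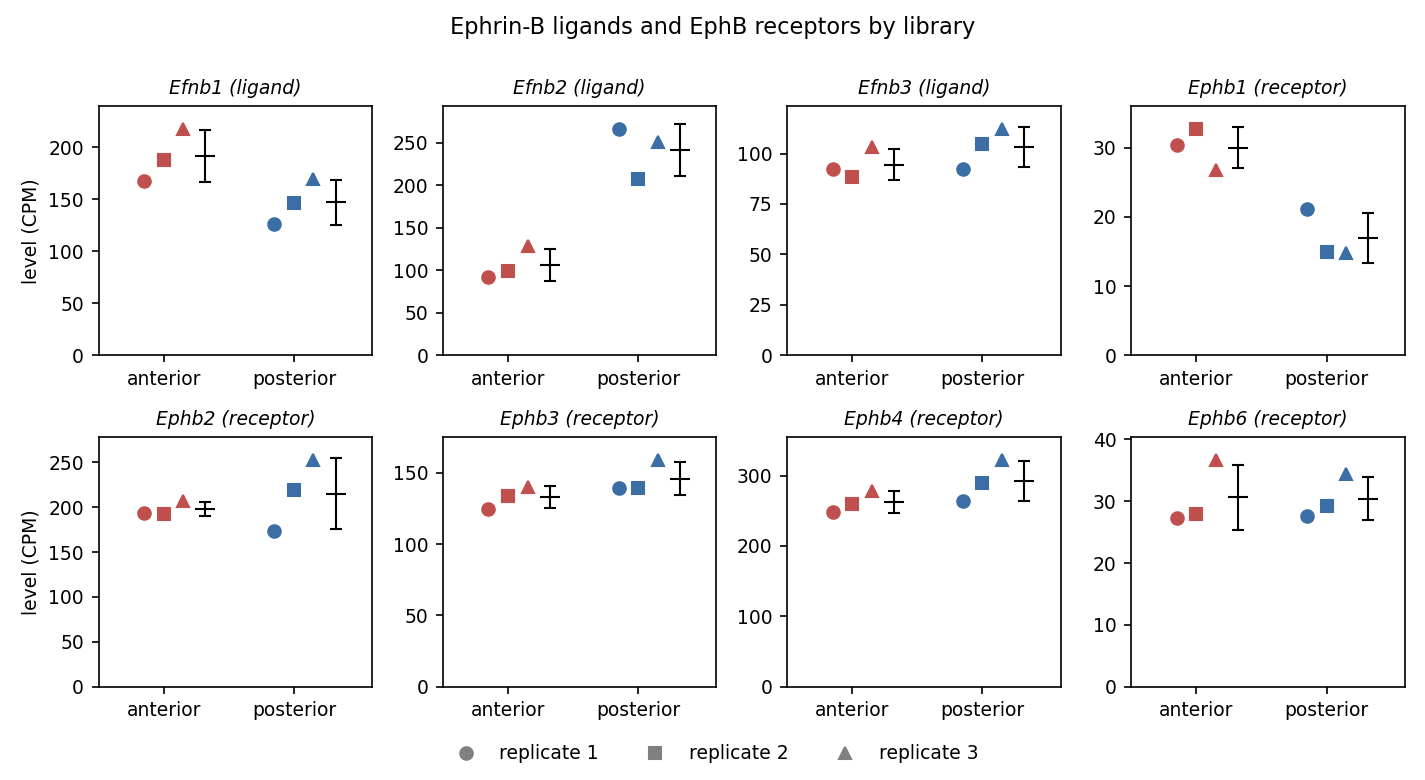
Level of each member in CPM (vertical axes, each from 0) in the 3 anterior (red) and 3 posterior (blue) libraries, with the marker shape giving the replicate number and the black bar the mean ± SD. The posterior libraries lie above the anterior ones for Efnb2 and below them for Ephb1, and the regions overlap for the other 6 members.

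Among the ligands, Efnb2 (chromosome 8, 8617434 to 8661242, minus strand, GRCm38) had 92.3, 99.5 and 128 CPM in anterior replicates 1, 2 and 3. It had 267, 207 and 251 CPM in posterior replicates 1, 2 and 3. Every posterior library lay above every anterior library, and the highest value was in posterior replicate 1, the posterior library that resembled the anterior ones in mitochondrial share. The means were 107 ± 19.0 CPM for the anterior and 242 ± 30.7 CPM for the posterior palate (SD, n = 3 each). The log2 fold change was 1.18 (SE 0.16, 95% interval 0.82 to 1.54, adjusted p = 0.00455, edgeR), or 2.27-fold with an interval from 1.76 to 2.91. An exact two-sided permutation test over the libraries gave p = 0.1, the smallest that 3 against 3 can give. Efnb2 was called in all 11 other fits to all libraries and in all 6 fits that left out 1 library, with log2 fold changes of 1.08 to 1.33 over the 17. The library-group fit gave 1.32 (adjusted p = 0.00265, 7.61% of genes called). A short same-strand transcript that overlaps Efnb2, E230020D15Rik, had 2 to 27 reads, and how shared reads were counted is not stated in the sources used here.

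Efnb1 (chromosome X, 99136130 to 99148991, plus strand), a ligand whose loss causes cleft palate, ran the other way. Anterior replicates 1, 2 and 3 stood at 168, 188 and 218 CPM. The posterior libraries, in the same order, stood at 126, 147 and 169 CPM. The regions met only at their edges, where posterior replicate 3 exceeded anterior replicate 1. The means were 191 ± 25.0 and 147 ± 21.6 CPM (SD, n = 3 each), and the log2 fold change was -0.38 (SE 0.14, 95% interval -0.71 to -0.042, adjusted p = 0.158), which is not past the threshold. It was past the threshold in 1 of 17 other fits, at -0.60 (adjusted p = 0.0475) with the library-group term, where posterior replicate 1, the lowest of the 6 libraries, stands for its region. Efnb1 is X-linked, and the female library lay between the 2 male libraries of its region in both regions.

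Efnb3 (chromosome 11, 69554092 to 69560205, minus strand), a ligand known for its place at the midline of the spinal cord, did not pass the test. It had 92.2, 88.3 and 103 CPM in the anterior and 92.5, 105 and 112 CPM in the posterior libraries. The regions overlapped, with means of 94.5 ± 7.70 and 103 ± 9.95 CPM (SD, n = 3 each). The log2 fold change was 0.13 (SE 0.11, adjusted p = 0.483), and its 95% interval of -0.13 to 0.38 spans 0.

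Ephb1 (chromosome 9, 101922128 to 102354693, minus strand), a receptor known from axon guidance, was the only receptor called. Anterior replicates 1, 2 and 3 stood at 30.4, 32.7 and 26.8 CPM. The posterior libraries, in the same order, stood at 21.1, 14.9 and 14.8 CPM. Every anterior library lay above every posterior library, and posterior replicate 1 was the closest to them. The means were 29.96 ± 2.97 and 16.9 ± 3.62 CPM (SD, n = 3 each), a log2 fold change of -0.82 (SE 0.17, 95% interval -1.22 to -0.43, adjusted p = 0.0273, edgeR), or 1.77-fold higher in the anterior palate (interval 1.35 to 2.33). The exact two-sided permutation test over the libraries gave p = 0.1, the smallest possible.

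The Ephb1 call was not kept in every refit, while its direction was. It was made in 9 of 11 other fits to all libraries and was not made with the library-group term (-0.51, adjusted p = 0.0856), where 1 posterior library stands for its region, or with a term for embryo sex (-0.83, adjusted p = 0.0600, 5.13% of genes called). Leaving out any 1 library gave log2 fold changes between -1.01 and -0.73, and the call was made only without posterior replicate 1. That fit gave an adjusted p of 0.000359 by edgeR and called 46.4% of all genes tested. Fits without another single library called 3.23% to 4.15% of all genes, with Ephb1 at adjusted p = 0.0606 to 0.129. The difference between the fold estimated within the libraries of higher mitochondrial share and the fold from all libraries was not tested, and the posterior values of Ephb1 moved with those shares, at 21.1 CPM where the mitochondrial share was 2.70% and at 14.9 and 14.8 CPM where it was 0.973% and 1.14%. Reads counted without regard to strand were 0.935 to 0.965 times the reverse-stranded reads of Ephb1, a gene that other genes on the opposite strand overlap, and the unstranded counts kept the call.

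Ephb2 and Ephb3, the receptors whose combined loss causes cleft palate, did not pass the test. Ephb2 (chromosome 4, 136647539 to 136835988, minus strand) had 194, 193 and 207 CPM in the anterior and 174, 219 and 253 CPM in the posterior libraries. The posterior libraries lay on both sides of the anterior ones, with posterior replicate 1 the lowest of all 6. The means were 198 ± 7.89 and 215 ± 39.5 CPM (SD, n = 3 each), and the log2 fold change was 0.12 (SE 0.14, 95% interval -0.21 to 0.45, adjusted p = 0.601). Without posterior replicate 1 it was 0.26 (adjusted p = 0.0236), in a fit that called 46.4% of all genes tested, and with the library-group term it was -0.19 (adjusted p = 0.347).

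Ephb3 (chromosome 16, 21204755 to 21223305, plus strand) had 125, 134 and 140 CPM in the anterior and 139, 139 and 159 CPM in the posterior libraries. Its spread was the smallest of the 8 members by the standard error of the fold change. The means were 133 ± 7.74 and 146 ± 11.4 CPM (SD, n = 3 each), and the log2 fold change was 0.14 (SE 0.097, adjusted p = 0.403). The 95% interval, from -0.092 to 0.36, leaves room for a fold of 0.938 to 1.29.

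Ephb4 (chromosome 5, 137350109 to 137378669, plus strand), the venous receptor for Efnb2, had 249, 260 and 279 CPM in the anterior and 264, 290 and 322 CPM in the posterior libraries. The regions overlapped, with means of 262 ± 15.2 and 292 ± 28.9 CPM (SD, n = 3 each). The log2 fold change was 0.16 (SE 0.11, 95% interval -0.094 to 0.40, adjusted p = 0.385). Without posterior replicate 1 it was 0.23 (adjusted p = 0.0349), in the same fit that called 46.4% of all genes, and with the library-group term it was 0.011 (adjusted p = 0.969).

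Ephb6 (chromosome 6, 41605482 to 41620509, plus strand), a family member whose kinase domain is inactive, had 27.3, 27.9 and 36.7 CPM in the anterior and 27.6, 29.3 and 34.4 CPM in the posterior libraries. The means, 30.6 ± 5.24 and 30.4 ± 3.51 CPM (SD, n = 3 each), differed by less than the spread between replicates. The log2 fold change was -0.0091 (SE 0.15, adjusted p = 0.973), with a 95% interval of -0.36 to 0.35.

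**Figure D2:**
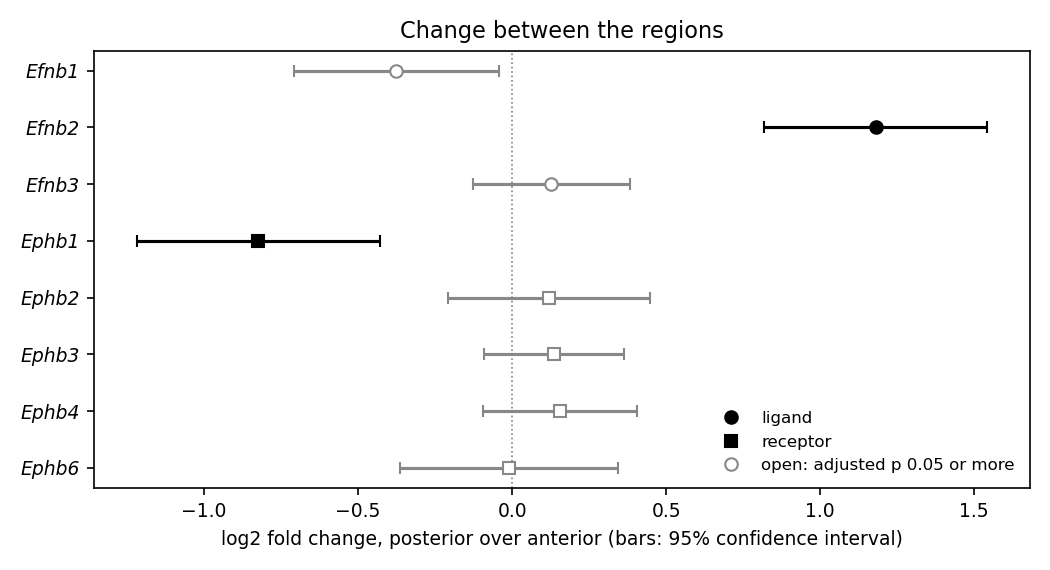
Log2 fold change of each member, posterior over anterior (horizontal axis), with its 95% confidence interval from edgeR, circles for ligands and squares for receptors, filled where the adjusted p was below 0.05. Efnb2 lies at 1.18 and Ephb1 at -0.82, and the other members lie between -0.38 and 0.16.

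The median log2 fold change was 0.13 over the 3 ligands and 0.12 over the 5 receptors, beside -0.0040 over all genes tested. Among the ligands the 3 genes took 3 courses, with Efnb2 called higher in the posterior palate, Efnb1 at -0.38 and Efnb3 at 0.13. Among the receptors 4 of 5 lay between -0.0091 and 0.16, and Ephb1, the least abundant, was called.

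Levels of different genes were compared per kilobase of exon, using the summed exon length of each gene. In the anterior palate the order was Ephb4 (56.6 ± 3.27 CPM per kb), Efnb1 (55.4 ± 7.25), Efnb3 (29.7 ± 2.42), Ephb3 (20.02 ± 1.17), Ephb2 (15.7 ± 0.626), Efnb2 (15.6 ± 2.77), Ephb6 (8.12 ± 1.39) and Ephb1 (4.28 ± 0.424), each as mean ± SD of 3 libraries. Ephb4 and Efnb1 did not differ beyond their spread, nor did Ephb2 and Efnb2, and the ranges of all other neighbours were apart. In the posterior palate the order was Ephb4 (63.0 ± 6.24 CPM per kb), Efnb1 (42.7 ± 6.26), Efnb2 (35.3 ± 4.48), Efnb3 (32.4 ± 3.13), Ephb3 (22.0 ± 1.71), Ephb2 (17.1 ± 3.13), Ephb6 (8.06 ± 0.930) and Ephb1 (2.42 ± 0.516). There Efnb2 stood beside the other ligands, since Efnb1 and Efnb2, and Efnb2 and Efnb3, did not differ beyond their spread. With the length of the longest coding transcript in place of all exons, an alternative chosen after seeing the data, posterior Efnb2 stood at 50.4 ± 6.41 and Efnb1 at 45.2 ± 6.63 CPM per kb, again overlapping. In the anterior palate the same lengths put Efnb2 (22.3 ± 3.96) above Ephb2 (18.2 ± 0.724) with ranges apart, and Efnb3 (29.7 ± 2.42) and Ephb3 (28.0 ± 1.63) then overlapped. Over all genes tested, levels per kb ranged from the 39.0th percentile for Ephb1 to the 95.5th for Ephb4, with Efnb1 at the 94.1st.

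Of the summed CPM per kb of the ligands, Efnb2 held a larger and Efnb1 a smaller share in the posterior palate. Efnb2 made up 14.8%, 15.03% and 16.4% of the ligands in the anterior libraries, in replicate order, and 37.2%, 28.6% and 30.3% in the posterior ones. Efnb1 made up 53.4%, 56.3% and 55.2% in the anterior and 34.9%, 40.2% and 40.5% in the posterior libraries. Efnb3 made up 28.4% to 31.8% and 27.8% to 31.1%, which overlap. Within the receptors, Ephb4 held 53.9% to 54.1% in the anterior and 55.7% to 56.4% in the posterior libraries, and Ephb1 held 3.45% to 4.51% and 1.70% to 2.95%. The summed ligands over the summed receptors stood at 0.917, 0.934 and 1.03 in the anterior and at 1.02, 0.954 and 0.970 in the posterior libraries, which overlap.

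**Figure D3:**
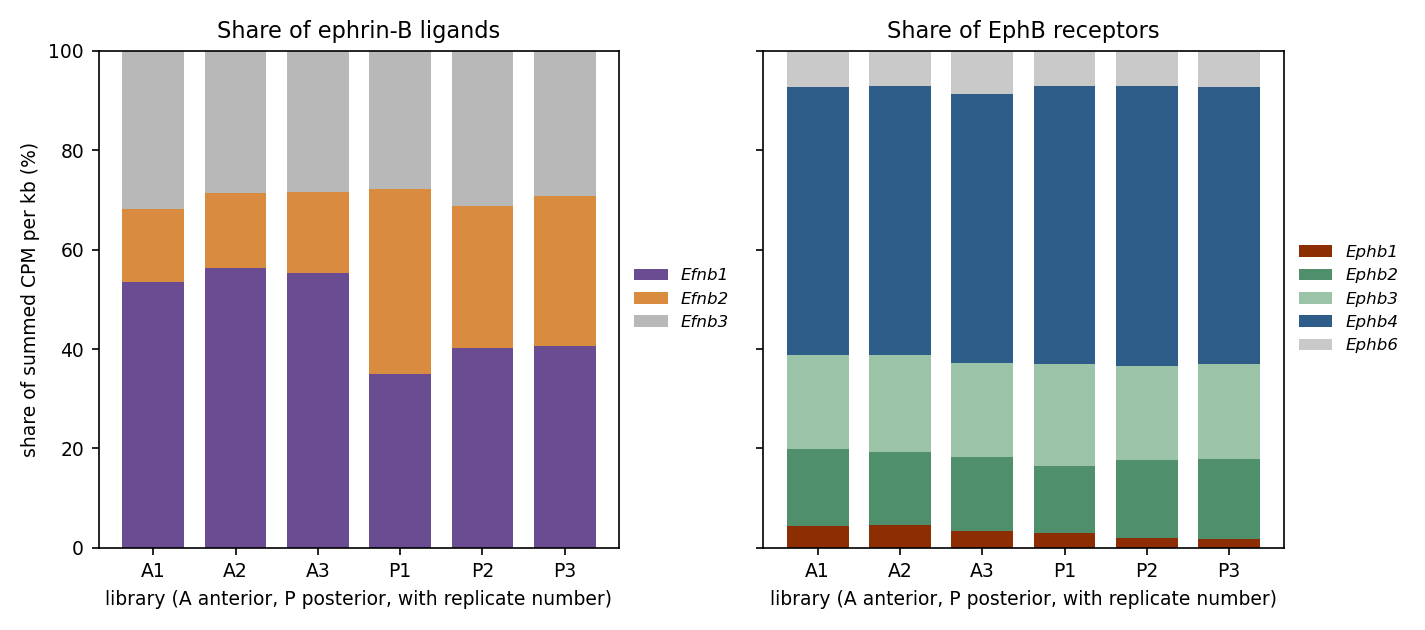
Share of each gene in the summed CPM per kb (vertical axis, percent) of the 3 ephrin-B ligands (left) and the 5 EphB receptors (right), with 1 bar per library. Efnb2 fills 14.8% to 16.4% of the ligand bar in the anterior and 28.6% to 37.2% in the posterior libraries, while Ephb4 fills 53.9% to 56.4% of every receptor bar.

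Ratios of 2 members within a library compare their gradients free of library scaling, and 5 such ratios were computed. The ratio of Efnb2 to Efnb1, in counts per kb, was 0.277, 0.267 and 0.297 in the anterior and 1.07, 0.712 and 0.747 in the posterior libraries. It was 2.96-fold higher in the posterior palate (log2 difference 1.56), and no anterior library reached the lowest posterior library. The ratio of Ephb4 to Efnb2, receptor over ligand, fell from 3.98, 3.86 and 3.21 to 1.47, 2.07 and 1.90, a log2 difference of -1.03 or 0.488-fold. Ephb2 over Efnb1 (log2 difference 0.48, 1.40-fold) and Ephb3 over Efnb1 (log2 difference 0.51, 1.43-fold) were higher in every posterior library than in any anterior library. All 4 ratios hold Efnb1 or Efnb2, so they are not separate results. How often ratios of other gene pairs stand apart was not computed. The exact two-sided permutation p was 0.1 for each of these 4 ratios, the smallest that 3 against 3 can give, and 0.125 after Benjamini-Hochberg adjustment over the 5 ratios, so none of them could pass 0.05. Ephb3 over Ephb2 overlapped between the regions, with a log2 difference of 0.029 (exact permutation p = 1).

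**Figure D4:**
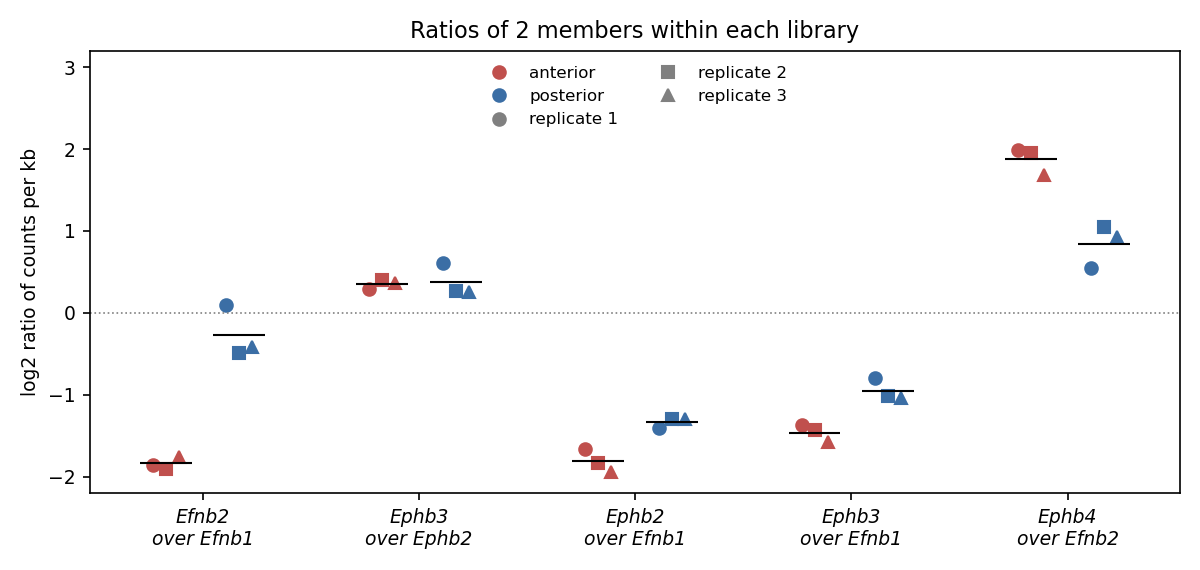
Log2 ratio of counts per kb of 2 members within each library (vertical axis), for the 5 ratios, with red for anterior and blue for posterior libraries, marker shape for the replicate number and a black line at each mean. The regions are apart for 4 ratios, each of which holds Efnb1 or Efnb2, and overlap for Ephb3 over Ephb2.

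In bulk tissue, fewer cells of a type and less RNA per cell cannot be told apart, so the levels of other cell types were read beside the members. For Efnb2, an arterial gene in vessels, 0 of 10 endothelial markers were called by edgeR (2 at an unadjusted p below 0.05, 1 by DESeq2, 0 by limma-voom), and their summed level was 535 to 546 CPM in the anterior and 461 to 719 CPM in the posterior libraries. The 7 arterial markers summed to 159 to 198 and 98.5 to 175 CPM, and the 1 called, Hey1, was higher in the anterior palate. The 4 venous markers summed to 400 to 457 and 367 to 653 CPM, with 1 called by edgeR, 3 by DESeq2 and 1 by limma-voom (3 at an unadjusted p below 0.05). Flt4 was called higher in the posterior palate (log2 fold change 0.90, and 0.46 with the library-group term), while Aplnr, not called by edgeR, lay at -0.49. The median over the list was 0.54. Skeletal muscle markers rose in the posterior palate in 8 of 8 genes, from 6.07 to 10.6 CPM up to 523 to 916 CPM, and chondrocyte markers in 2 of 5 genes tested, from 129 to 172 up to 518 to 660 CPM. No marker of these lists was at 0 in every library. The part of muscle and cartilage cells in the Efnb2 difference was not tested.

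For Ephb1 and the neural lists, 2 of 6 neuronal markers tested were called, both higher in the posterior palate, and their sum was 38.6 to 45.4 CPM in the anterior and 45.0 to 314 CPM in the posterior libraries, with the highest value in posterior replicate 2. The 6 glial markers summed to 53.3 to 61.2 and 63.6 to 88.7 CPM, with Erbb3 called higher in the posterior palate (log2 fold change 0.70, adjusted p = 0.0413, and 0.32 at adjusted p = 0.113 with the library-group term). The lowest posterior neuronal sum lay within the anterior range, and every posterior glial sum lay above the anterior ones, while Ephb1 was lower in every posterior library. The part of nerve and glial cells in the Ephb1 difference was not tested. The 10 epithelial markers summed to 1729 to 1832 and 1210 to 1976 CPM, with Trp63 called higher in the anterior palate, and were lowest in posterior replicates 3 and 2. Of the 5 osteoblast markers tested, 0 were called by edgeR (3 at an unadjusted p below 0.05, 3 by DESeq2, 0 by limma-voom), with sums of 1968 to 3552 and 295 to 1821 CPM. The part of epithelial and bone-forming cells in the Ephb1 difference was not tested. As a check of the labelled tissue, the 4 palatal mesenchyme markers summed to 1515 to 1574 and 1172 to 1565 CPM, with 3 of 4 called in opposite directions. Prrx1 fell from 1058 ± 21.3 to 417 ± 38.2 CPM (SD, n = 3 each, log2 fold change -1.34), and Twist1 (0.74) and Pdgfra (1.06) were called higher in the posterior palate. Pdgfra was called in 9 of 17 other fits, and stood at 0.38 with the library-group term. Myeloid (85.2 to 98.4 CPM over all 6 libraries) and erythroid markers (759 to 1423 CPM) had no gene called by edgeR, with 3 and 0 genes at an unadjusted p below 0.05 and 0 called by DESeq2 or limma-voom.

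The A class of the same family, whose ephrin-A ligands are anchored by a lipid and bind EphA receptors, had 13 of its 14 genes tested. There were 2 called higher in the posterior and 1 in the anterior palate, with a median log2 fold change of 0.28, where 4.87% and 2.59% of all genes were called. At an unadjusted p below 0.05 there were 8 of 13, and DESeq2 called 5 and limma-voom 3. The receptor Epha3 had 227 ± 46.7 CPM in the anterior and 546 ± 141 CPM in the posterior palate (SD, n = 3 each), a log2 fold change of 1.26 (SE 0.22, adjusted p = 0.0147), and was called in 14 of 17 other fits (0.84 with the library-group term). The ligand Efna5 ran the other way, at 138 ± 9.77 and 79.5 ± 9.07 CPM (log2 fold change -0.80, SE 0.11, adjusted p = 0.00577), and was called in all 17 other fits. Epha6 was called at a level near the detection limit (0.368 ± 0.0716 and 1.19 ± 0.256 CPM, 4 to 19 reads, log2 fold change 1.68, adjusted p = 0.0318) and in 6 of 13 other fits (1.28, adjusted p = 0.197, with the library-group term).

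Among 17 partners of reverse signalling, which bind or act below the ephrin-B tail, 1 was called in each direction, where 4.87% of all genes were called higher in the posterior and 2.59% higher in the anterior palate, and the median log2 fold change was -0.021. At an unadjusted p below 0.05 there were 7, and DESeq2 called 4 and limma-voom 2. Grip2, a PDZ scaffold that binds ephrin-B ligands, was higher in the posterior palate (0.512 ± 0.144 against 1.83 ± 0.366 CPM, 4 to 31 reads, log2 fold change 1.81, adjusted p = 0.0197) and was called in 8 of 13 other fits (1.44, adjusted p = 0.102, with the library-group term). Rgs3, a regulator of G-protein signalling that binds the ephrin-B tail, was higher in the anterior palate (38.7 ± 2.53 against 28.0 ± 2.47 CPM, log2 fold change -0.47, adjusted p = 0.0470) and was called in 9 of 17 other fits (-0.58 with the library-group term). Among 28 partners of forward signalling below the receptors, 0 were called by edgeR, with 8 at an unadjusted p below 0.05, 3 called by DESeq2 (12.6% of genes called) and 0 by limma-voom (6.85% of genes called). Their log2 fold changes lay between -0.51 and 0.80, with a median of 0.048.

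Of 8 proteases and phosphatases that cut or dephosphorylate Eph receptors and ephrins, 3 were called, where 7.46% of all genes were. At an unadjusted p below 0.05 there were 4, and DESeq2 called 3 and limma-voom 1. Mmp9, a matrix metalloproteinase also abundant in bone-resorbing cells, was higher in the anterior palate (75.4 ± 17.6 against 18.8 ± 6.69 CPM, log2 fold change -2.00, SE 0.29, adjusted p = 0.00633) and was called in all 17 other fits. The receptor-type tyrosine phosphatases Ptpro (1.42 ± 0.180 against 4.44 ± 1.98 CPM, log2 fold change 1.63, adjusted p = 0.0346) and Ptprj (14.5 ± 1.32 against 26.2 ± 6.72 CPM, log2 fold change 0.85, adjusted p = 0.0464) were higher in the posterior palate and were called in 11 and 8 of 17 other fits. With the library-group term Ptpro was at 1.27 (adjusted p = 0.154) and Ptprj at 0.38 (adjusted p = 0.227).

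The genes whose profiles over the 6 libraries were most like those of the called members were found by the root mean square distance between centred log2 CPM, out of 15672 other genes tested. Closest to Efnb2 were Trpc4, a cation channel (distance 0.063, 2.91 and 6.25 CPM in the anterior and posterior palate), Pam, an enzyme of peptide amidation (0.066, 200.1 and 444 CPM), and Acta2, smooth muscle actin (0.075, 53.2 and 126 CPM). All 3 were called higher in the posterior palate, a direction that follows from choosing them by likeness to Efnb2 over these libraries. Closest to Ephb1 were Tnfrsf18 (0.089, 1.08 and 0.576 CPM, adjusted p = 0.129), Tagln2 (0.090, 188 and 118 CPM, adjusted p = 0.0317) and Gmds, an enzyme of fucose synthesis (0.090, 41.9 and 24.8 CPM, adjusted p = 0.0146).

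The members' changes were refitted under 17 other settings each, and the plot of the refits shows which of them moved. Efnb2 stayed called in all of them, and its lowest log2 fold change was 1.08. Ephb1 stayed between -1.01 and -0.51. The log2 fold changes of Efnb3, Ephb2 and Ephb6 crossed 0 in some of them, while Efnb1, Ephb3 and Ephb4 kept their sign in all 17. The share of all genes called was 3.38%, 3.23% and 4.09% without anterior replicates 1, 2 and 3, 46.4%, 3.25% and 4.15% without posterior replicates 1, 2 and 3, and 5.13% to 12.6% in the other refits, where RLE normalization called 7.46%, library size alone 7.45%, no filter 7.14%, a stricter filter 6.01%, unstranded counts 7.16%, the replicate block 5.29% and the length correction 8.69%.

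**Figure D5:**
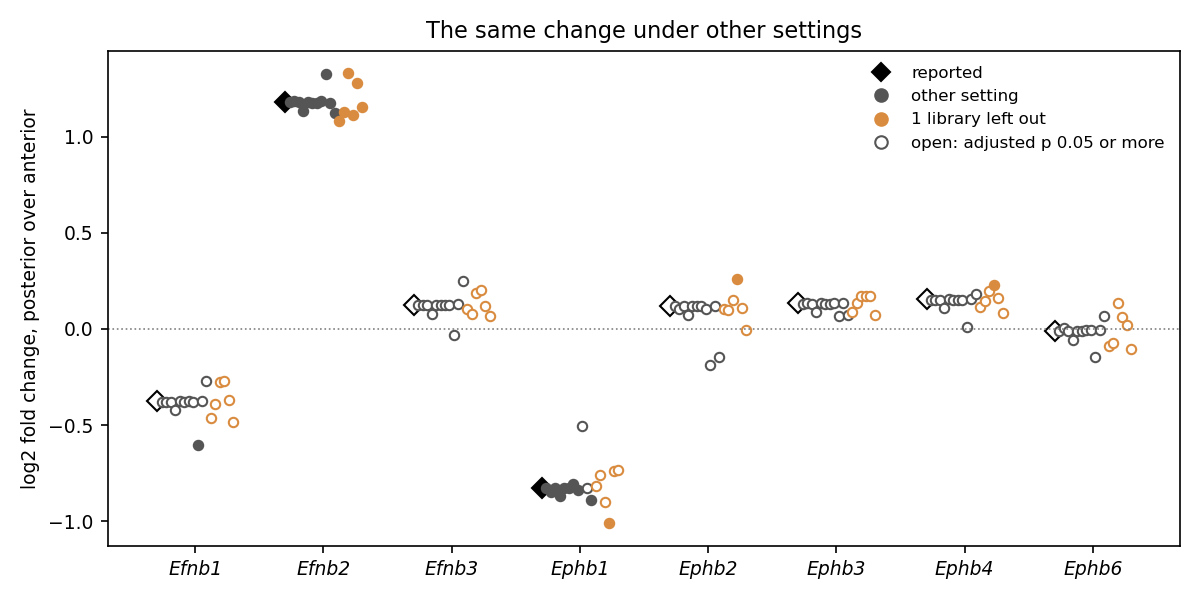
Log2 fold change of each member, posterior over anterior (vertical axis), as reported (black diamond), under other settings (grey) and with 1 library left out (orange), with open markers where the adjusted p was 0.05 or more. All markers of Efnb2 are filled and lie between 1.08 and 1.33, and those of Ephb1 lie between -1.01 and -0.51 with filled and open markers mixed.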

How the data were processed

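For each of the 6 libraries the authors deposited unnormalized read counts for each Ensembl gene, without regard to strand and by strand, in the layout that STAR writes, whereas the study's methods and the submitters' processing notes name HISAT2 on mm10, StringTie and DESeq2 1.30.1. The reverse-stranded counts, 18.95 to 23.1 times those of the other strand, were used. Symbols, positions and exon lengths came from GENCODE M21 (GRCm38), matched without version numbers for 52073 of 56691 identifiers. The regions were compared with edgeR 4.0.16 (R 4.3.3) by the quasi-likelihood test after TMM normalization, on genes that reached 10 counts in 3 or more libraries. The model held region alone, with Benjamini-Hochberg adjustment and a threshold of 0.05 on the adjusted p. DESeq2 1.42.0 and limma 3.58.1 were alternatives, and the fits were tested on simulated data. A count of 0 would allow up to 3 counts, or 0.198 to 0.264 CPM, a limit that covers counting error alone. No 2 libraries of a region agreed within sampling noise (chi-square per gene 3.49 to 69.4).

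Libraries were grouped by the region in their labels. All 8 members were named, then the called genes of the other pathway lists (at most 5 in each direction) and, for each called member, the 3 genes with the nearest profiles. The members and lists were chosen with earlier results of these data known. Posterior replicate 1 alone against the anterior libraries and the longest coding transcript were added after seeing the data. Single-cell and ChIP-seq data were not analysed here.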

Additional observations from a re-analysis of the deposited data

How the results depend on the processing

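Of the 88 refits of single members in the 11 planned settings that kept all libraries, 80 changed neither sign nor call, and of the 48 that left out 1 library 37 changed neither. The number of members called, 2 as reported with 1 in each direction, was 1 with the term for embryo sex (0 higher in the anterior palate), and it ranged from 1 to 4 when 1 library was left out (1 to 3 higher in the posterior and 0 to 1 higher in the anterior palate). The 4 came without posterior replicate 1, where 46.4% of all genes were called, and the other 5 fits, with 3.23% to 4.15% of genes called, gave 1. The log2 fold change changed sign for Ephb6 with limma-voom (0.0036) and the length correction (0.070), for Ephb2 with the length correction (-0.15), the library-group term (-0.19) and posterior replicate 1 alone (-0.19), and for Efnb3 with the library-group term (-0.030) and posterior replicate 1 alone (-0.031). With 1 library left out, Ephb6 ranged from -0.10 to 0.14, with 3 fits above 0, and Ephb2 from -0.0056 to 0.26, below 0 without posterior replicate 3. The Ephb3 over Ephb2 difference (0.029) changed sign without anterior replicate 1 (-0.0018) and without posterior replicate 1 (-0.084), over a range of -0.084 to 0.089. Posterior replicate 1 alone repeats the contrast of the library-group term and was not counted among the 17 other fits. The causes were not tested.

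Over all genes, 1169 were called as reported, 1978 by DESeq2, 2162 without the low-count filter, 498 to 637 without any 1 library other than posterior replicate 1, and 7119 without posterior replicate 1. With the replicate number as a block, 829 genes and the same number of members (2) were called, with Efnb2 at 1.19 and Ephb1 at -0.84 (adjusted p = 0.0377). Deviations of same-numbered libraries correlated at -0.053, 0.045 and 0.036, although same-numbered libraries were of the same embryo sex. Anterior replicate 1 correlated best with posterior replicate 3 (0.090), and anterior replicate 2 with posterior replicate 1 (0.064). The numbers were therefore not used to pair the libraries, and whether they mark shared embryos is not stated in the sources used here. With 3 libraries per region and 206 to 450 reads per library, Ephb1 is the member whose value counting error limits most.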
